A study of Mus musculus with 36 samples.

Results

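Otx2, Hesx1, Six3, Pou3f1, Foxd4, Fzd5, Gsc and Fam107a are genes of the anterior neurectoderm and the prechordal tissue of the mouse embryo. These 8 of the 30869 gene symbols on the array were taken by name, and 13 of the 45281 probes carry one of the names. Of these 13 probes, 9 were detected on at least 1 array, so that each of the 8 genes was measured by at least 1 probe. Fzd5 had 4 probes, of which 2 were never detected, and Six3 had 3, of which 2 were never detected.

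The head forms from the front of the neural plate, which lies over the prechordal plate, a strip of axial mesendoderm ahead of the notochord. Otx2, Hesx1 and Six3 encode homeodomain transcription factors needed for the forebrain, and Otx2 also acts in the midbrain. Pou3f1 encodes a POU-domain factor of the epiblast and early neural plate, Foxd4 a forkhead factor of early neurectoderm, and Fzd5 a Frizzled receptor for Wnt ligands that is needed in the eye field. Gsc encodes the homeodomain factor goosecoid, a marker of the organiser and later of the prechordal plate, and Fam107a an actin-associated protein. Wnt and Fgf signals made in and around the primitive streak posteriorise the neural plate, and Wnt antagonists made in front of it shield the head.

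The study profiled small pieces of wild-type embryos of MF1, an outbred strain, on 36 Illumina arrays. Each array held RNA of a pool of 6 to 74 pieces of a single kind, so that no array represents 1 embryo. At E7.5, the headfold stage, the regions were anterior (A, 3 arrays), posterior (P, 2 arrays) and proximal posterior (PP, 2 arrays). The paper describes A as neural-fated, P as the remainder of the embryo with the streak, and PP as the posteriormost streak. P is thus a large mixed piece, and the 3 pieces are not equal steps along the axis. At E8.5 they were the rostral node (RN, 2 arrays), the node-streak border (NSB, 3 arrays), the caudal lateral epiblast (CLE, 3 arrays) and the rostral and caudal ends of the streak, St1 and St5 (2 arrays each). Tail buds gave the chordoneural hinge (CNH) at E9.5, E10.5, E11.5, E12.5 and E13.5, and, from E9.5 to E11.5, the piece just behind the hinge (P-CNH), on 17 arrays in all. No anterior piece was taken after E7.5, so any later loss described here is a difference between the E7.5 pieces and caudal pieces of older embryos.

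Values are log2 intensities after background correction and quantile normalisation, and a probe counted as detected on an array where its detection p-value was under 0.01. The 16 regions were compared with limma with the 3 labelled batches as a term, and a difference was called where the Benjamini-Hochberg adjusted p was at most 0.05 and the fold change at least 1.5. A group in which no array detected a probe gives only a lower bound of the fold. The bound sets the mean of the brighter group against the weakest signal that counted as detected on the other group's arrays. It uses array means without the batch term and carries no error, so it can exceed the fitted fold. Undetected values of the brighter group enter its mean, and a bound is then only approximate. The arrays detected 10814 to 16256 probes each, the fewest in E13.5 CNH replicate 2 and E8.5 CLE replicate 1 (11062). Replicates of a region correlated with r of 0.858 to 0.997 (median 0.962) over the probes tested. The number of arrays limits the precision throughout, and in pooled tissue fewer expressing cells and less RNA per cell cannot be told apart.

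The pieces were checked against defining markers before the genes were compared. In A, Otx2 averaged 12.32 ± 0.49 (SD, n = 3) and Otx1, a second Otx gene of the head, 9.49 ± 0.11, both on 3 of 3 arrays. Hesx1 and Six3, which belong to the same territory, were detected on 1 of 3 A arrays each. En1, the remaining rostral gene of this check, has a probe but was detected on no array, A included. Of the streak genes, Wnt3a and Mixl1 were detected on 0 of 3 A arrays, Evx1 on 1 of 3 (mean 6.23 ± 1.06) and Fgf8 on 3 of 3 (7.36 ± 0.73). T, which marks the streak and the notochord, was also detected on all 3 A arrays, at 10.7 ± 0.68, against 13.07 ± 0.04 (n = 2) in P. The name of the gene group therefore fits A by Otx2, itself 1 of the 8 genes, and by Otx1. Otx1 was also detected in P (mean 7.82), PP (6.61) and E9.5 CNH (8.34). Hesx1 and Six3 add little on these arrays, and no prechordal gene was part of this check.

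**Figure D1:**
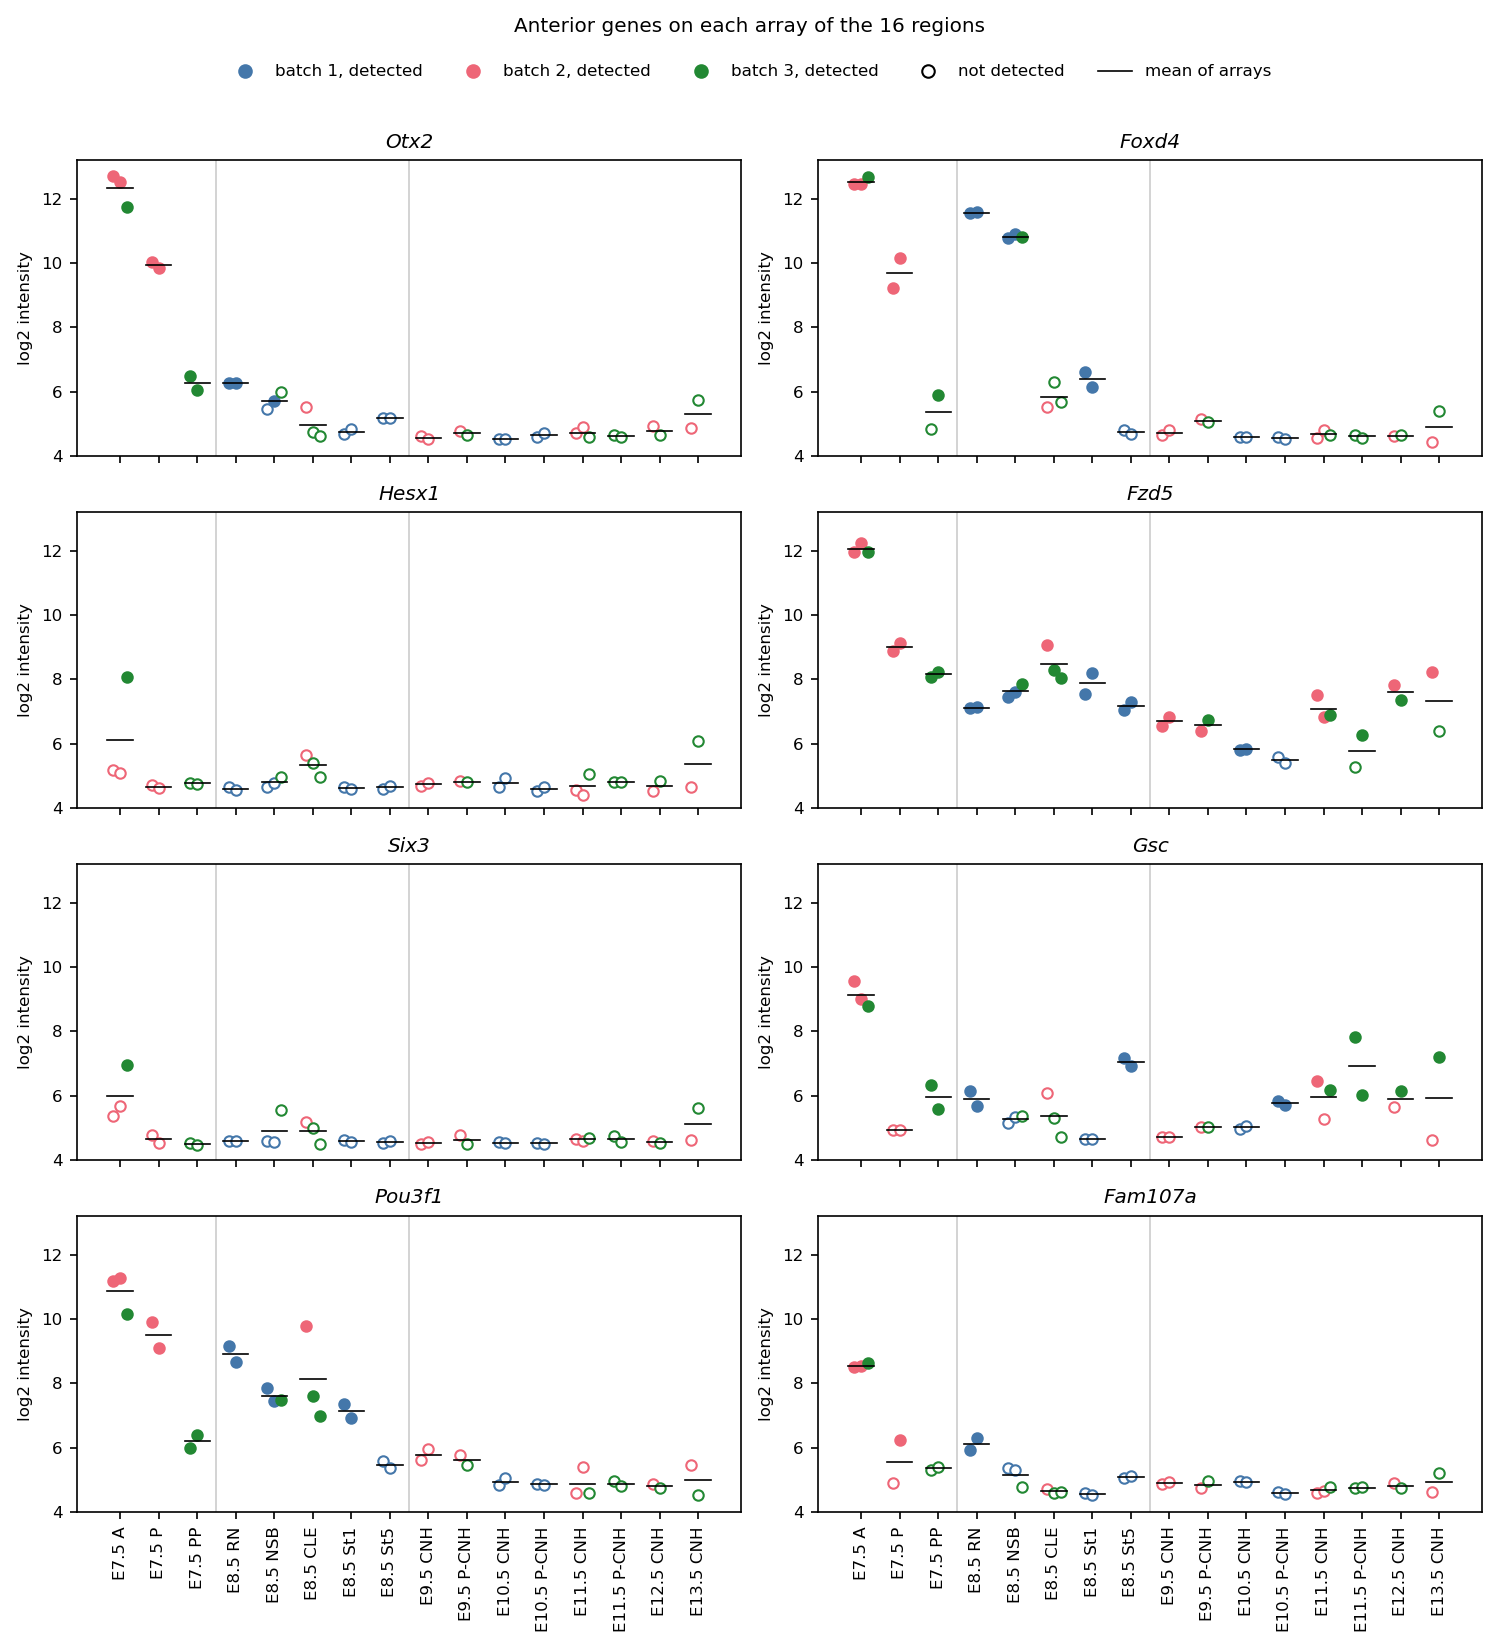
Normalised log2 intensity (y axis) of the most intense probe of each gene on every array of the 16 regions (x axis). Points are arrays coloured by batch, filled where the probe was detected and open where it was not, short bars are means and grey lines separate E7.5, E8.5 and the tail bud. Each of the 8 genes has its highest mean in A, and Hesx1 and Six3 are filled on 1 array only.

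Comparison of A with P asks which genes already differ along the axis at the headfold stage. Of the 8 genes, 7 were higher in A and 0 lower, where 1.37% of the 15556 genes tested were higher in A and 1.51% lower. The median difference of the 8 genes was 2.61 on the log2 scale, against 0.06 over all genes. Hesx1 was not called. Leaving out any 1 of the A or P arrays left 5 or 6 calls, since Six3 or Pou3f1 or both were lost. Against PP, all 8 genes were higher in A, where 3.44% of genes were higher and 3.36% lower, with a median of 3.44 against 0.05 over all genes. The 2 comparisons share the A arrays. Hesx1 and Six3 were tested at all only because A replicate 3 detected them, so the choice of probes to test favours a higher value in A for these 2 genes. Without them, 6 genes were higher in A in either comparison.

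Between the posterior pieces, 3 of the 8 genes were higher in P than in PP and 0 lower, where 0.399% of genes were higher and 0.431% lower. They were Foxd4, detected on 1 of 2 PP arrays, Otx2 and Pou3f1. The median of the 8 genes was 0.59 against -0.02 over all genes. The values of the other 5 genes ran from -0.79 for Gsc to 0.74 for Hesx1 and did not pass the test. Of the visceral endoderm genes, 2 of 7 were lower in P (median -1.46), and of the allantois and extraembryonic mesoderm genes 1 of 4 (-1.20), and their part was not tested. P and PP were never in the same batch, so this comparison rests on the batch term. The regions with arrays in both of their batches are A, CLE, E9.5 P-CNH and the CNH of E11.5, E12.5 and E13.5.

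**Figure D2:**
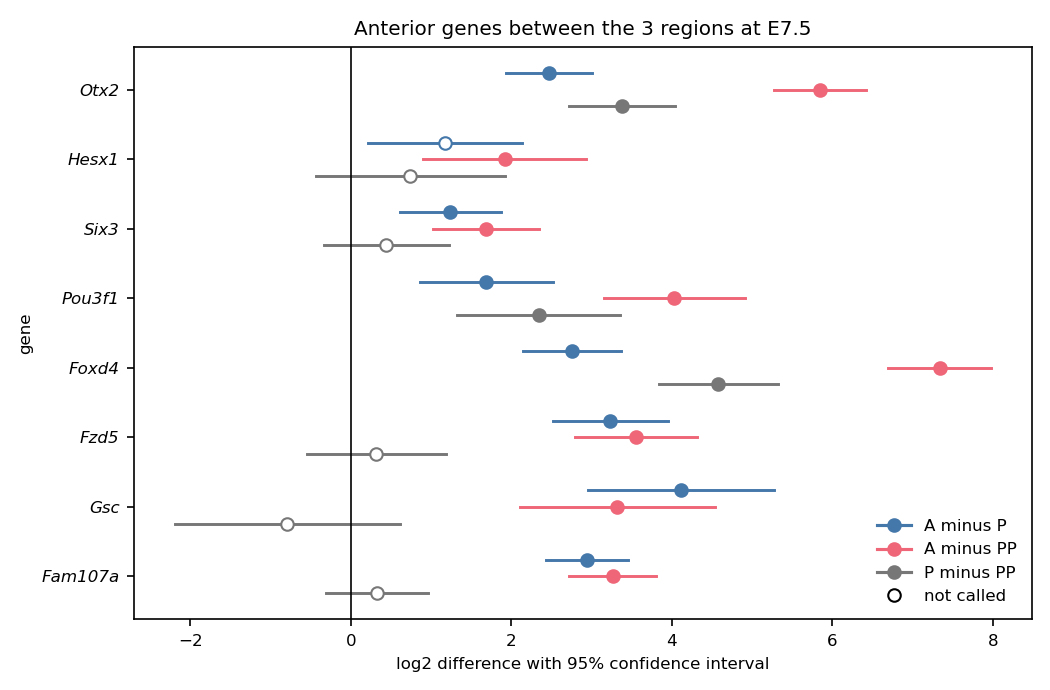
Log2 difference (x axis) of each gene (y axis) between the 3 regions at E7.5, with the 95% confidence interval of the limma fit as a line. Filled points passed the test and open points did not. Foxd4, Otx2 and Pou3f1 passed in all 3 comparisons. Fzd5, Gsc, Fam107a and Six3 passed in both comparisons with A and not in that of P with PP, and Hesx1 passed only in that of A with PP.

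Promoters were read because the genes were high in the same piece. RefSeq (GRCm38.p6) windows from 250 bases before to 50 after a gene start were at hand for 7 of the 8 genes, 12 windows in all, and for none of Pou3f1. Each was searched on both strands for 6 motifs. They were the homeodomain motif TAATTA, found in 5.29% of all 32851 windows of this length, and the bicoid-type motif TAATCC, found in 7.06%. The octamer motif ATGCAAAT occurred in 1.74% of them. The forkhead motif GTAAACA occurred in 3.65%, the Tcf/Lef motif ATCAAAG in 3.73% and the TALE motif TGACAG in 19.2%. The windows below belong to genes called between A and P, each from a gene on the minus strand of its chromosome and given 5′ to 3′ in the direction of the gene, with motif matches in capitals. The Otx2 window at chr14:48665060-48665359 held TAATTA at bases 17 to 22, 77 to 82 and 97 to 102, and TAATCC on the opposite strand at bases 40 to 45. Windows of Foxd4 at chr19:24900967-24901266, Gsc at chr12:104473187-104473486 and Fzd5 at chr1:64737701-64738000 held none of the 6, and GC made up 75.7% of the Fzd5 window.
Otx2: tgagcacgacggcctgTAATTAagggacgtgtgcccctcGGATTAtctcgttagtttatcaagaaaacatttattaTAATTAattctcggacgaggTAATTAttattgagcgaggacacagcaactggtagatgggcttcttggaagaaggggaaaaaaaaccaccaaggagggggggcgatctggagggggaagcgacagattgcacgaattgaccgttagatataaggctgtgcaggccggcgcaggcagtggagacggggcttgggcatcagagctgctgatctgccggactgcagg
Foxd4: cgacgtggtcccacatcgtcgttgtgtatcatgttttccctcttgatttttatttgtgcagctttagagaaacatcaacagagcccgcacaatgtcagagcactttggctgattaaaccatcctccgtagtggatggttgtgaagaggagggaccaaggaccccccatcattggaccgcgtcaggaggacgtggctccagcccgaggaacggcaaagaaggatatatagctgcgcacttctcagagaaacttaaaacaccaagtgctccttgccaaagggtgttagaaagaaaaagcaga
Gsc: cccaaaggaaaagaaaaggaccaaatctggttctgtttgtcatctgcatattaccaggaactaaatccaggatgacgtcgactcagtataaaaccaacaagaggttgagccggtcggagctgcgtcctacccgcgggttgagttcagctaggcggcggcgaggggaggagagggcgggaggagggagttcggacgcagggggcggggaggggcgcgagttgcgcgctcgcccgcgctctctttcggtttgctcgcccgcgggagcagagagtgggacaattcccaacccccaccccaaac
Fzd5: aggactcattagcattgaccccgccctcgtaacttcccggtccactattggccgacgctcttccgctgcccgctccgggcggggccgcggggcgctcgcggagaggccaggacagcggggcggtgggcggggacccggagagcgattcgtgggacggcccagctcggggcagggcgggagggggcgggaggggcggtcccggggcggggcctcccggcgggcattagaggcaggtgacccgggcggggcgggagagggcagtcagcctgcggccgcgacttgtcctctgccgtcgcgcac

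Among the windows not printed, another Otx2 start at chr14:48667595-48667894 held TAATTA at bases 110 to 115, and those at chr14:48662685-48662984 and chr14:48667459-48667758 held no match. Six3 at chr17:85620584-85620883 (plus strand) held TGACAG at bases 112 to 117. Fam107a held TGACAG at bases 87 to 92 of chr14:8309728-8310027, and a window that overlaps it repeats the same match, whereas that at chr14:8317558-8317857 held none. The Hesx1 window at chr14:27000112-27000411 (plus strand) held no match. A match describes letters only, and binding was not measured.

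Otx2, the forebrain and midbrain factor, was highest in A, intermediate in P and lowest in PP. Its log2 intensities were 12.7, 12.51 and 11.76 in A, 10.04 and 9.86 in P, and 6.48 and 6.07 in PP. All 7 arrays detected it and no pair of regions overlapped. Otx2 was higher in A than in P by 2.47 (SE 0.26, limma adjusted p = 1.51e-06). Against PP it was higher in A by 5.85 (SE 0.28, limma adjusted p = 1.65e-12), which is 57.6-fold. P also exceeded PP, by 3.38 (SE 0.32, limma adjusted p = 2.49e-06), a value that ComBat without covariates lowered to 1.89 (0.0236).

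Foxd4, the forkhead factor, was also highest in A, intermediate in P and lowest in PP. Its values were 12.47, 12.47 and 12.67 in A, 9.24 and 10.15 in P, and 4.83 and 5.9 in PP, where 1 of 2 arrays detected it. Foxd4 was higher in A than in P by 2.76 (SE 0.29, limma adjusted p = 1.56e-06). The difference between A and PP was 7.34 (SE 0.31, limma adjusted p = 1.86e-13), a fitted fold of 162 that includes the PP array without detection. Between P and PP it was 4.58 (SE 0.36, limma adjusted p = 1.53e-07), and 2.96 with an offset of 100 (2.23e-08).

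Pou3f1, the POU factor, had 11.19, 11.26 and 10.14 in A, 9.9 and 9.09 in P, and 6 and 6.39 in PP. All 7 arrays detected it, and the lowest A array stood just above the higher P array. The difference between A and P was 1.69 (SE 0.40, limma adjusted p = 0.0194). That call was lost without A replicate 1 (1.68, limma adjusted p = 0.0707), without A replicate 2 (1.64, 0.0525) or without P replicate 2 (1.28, 0.223), and also with no batch term (1.37, 0.273). Against PP, Pou3f1 was higher in A by 4.03 (SE 0.42, limma adjusted p = 6.78e-07). P exceeded PP by 2.34 (SE 0.49, limma adjusted p = 0.0195), a call lost without P replicate 1 (1.94, 0.18) or without PP replicate 1 (2.15, 0.249), and with BeadChip as a fixed term (2.21, 0.345).

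Fzd5, the Wnt receptor, was highest in A and detected in all 3 pieces. Its main probe gave 11.97, 12.24 and 11.97 in A, 8.89 and 9.12 in P, and 8.09 and 8.22 in PP, all detected. A exceeded P by 3.23 (SE 0.35, limma adjusted p = 1.63e-06) and PP by 3.55 (SE 0.36, 5.08e-07), or 11.7-fold. P and PP differed by 0.32, which did not pass the test. A further Fzd5 probe, detected on 4 of the 36 arrays, was higher in A than in P by 1.61 (limma adjusted p = 0.000308), at least 2.13-fold.

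Gsc, the organiser and prechordal gene, had 9.57, 9 and 8.79 in A and 4.94 on both P arrays, where it was not detected. It was detected at 6.32 and 5.57 in PP. Gsc was thus at least 8.37-fold higher in A than in P, with a fitted difference of 4.11 (SE 0.56, limma adjusted p = 4.88e-05). The difference between A and PP was 3.32 (SE 0.59, limma adjusted p = 0.000576), or 10-fold. The PP arrays lay above the P arrays, but the fitted P minus PP value of -0.79 did not pass the test.

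Fam107a had closely grouped values of 8.51, 8.52 and 8.62 in A, and 4.9 and 6.23 in P, where 1 of 2 arrays detected it. In PP it was not detected, at 5.31 and 5.4. A exceeded P by 2.94 (SE 0.25, limma adjusted p = 4.58e-08). This value was 2.28 without P replicate 1 and 3.61 without P replicate 2, the P array that detected the gene. Against PP, Fam107a was at least 7.48-fold higher in A (fitted difference 3.27, SE 0.26, limma adjusted p = 1.19e-08).

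Hesx1 and Six3, forebrain homeodomain genes, were each seen on 1 of the 36 arrays, A replicate 3. Hesx1 had 5.19, 5.08 and 8.09 in A, 4.71 and 4.63 in P, and 4.78 and 4.75 in PP. Its difference between A and P was 1.17 (limma adjusted p = 0.277) and was not called. Between A and PP it was 1.92 (SE 0.49, limma adjusted p = 0.0168), with no fold given because only 1 of 3 A arrays detected it. This call was lost without A replicate 3 (0.72, limma adjusted p = 0.254), PP replicate 1 (1.94) or PP replicate 2 (1.9). The call was also lost with no batch term (1.36, 0.202) and with ComBat without covariates (1.22, 0.0539). Six3 had 5.36, 5.67 and 6.94 in A, 4.78 and 4.52 in P, and 4.53 and 4.46 in PP. A exceeded P by 1.24 (SE 0.31, limma adjusted p = 0.0254), with no fold given because the bound was under 1. This call was lost without A replicate 3 (0.86, limma adjusted p = 0.0856), P replicate 1 (1.37, 0.0892) or P replicate 2 (1.11, 0.163), when background was left in (0.76, 0.0533) and when the offset was 100 (0.43, 0.0789). A exceeded PP by 1.69 (SE 0.32, limma adjusted p = 0.00133), again with no fold given because only 1 of 3 A arrays detected Six3. Without A replicate 3 the fitted value was 1.04 (0.0321), between arrays none of which detected Six3.

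Within single batches, 5 of the 7 A against P calls remained. Batch 2 holds 2 A and 2 P arrays, and there limma called 248 probes lower in A and 132 higher, the latter including Gsc (4.35, adjusted p = 0.00348), Fzd5 (3.1, 0.0032), Fam107a (2.95, 0.016), Foxd4 (2.78, 0.00769) and Otx2 (2.65, 0.00159). Pou3f1 (1.73, 0.0811) and Six3 (0.86, 0.105) were not called in it, nor was Hesx1 (0.47, 0.344). Batch 3 holds 1 A array and 2 PP arrays, and limma, with 3 residual degrees of freedom and the single A array taken to vary like the others, called none of the 8 genes and 0 probes in all. All 8 differences had the same sign there. Foxd4 (7.31) and Otx2 (5.49) had an adjusted p of 0.0546 each, Pou3f1 was at 3.94, Fzd5 at 3.81, Hesx1 at 3.33, Fam107a at 3.26, Gsc at 2.85 and Six3 at 2.44.

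The A arrays differed from each other in markers of other tissues. The summed intensity of 7 visceral endoderm genes was 2100, 2160 and 10900 in A replicates 1, 2 and 3, with 4, 4 and 7 of the genes detected and Ttr or Amn the most abundant. That of 6 cardiac genes was 1300, 1070 and 2240, led by Myl7 at 9.11, 8.35 and 10.21. Thus the only array with Hesx1 and Six3 also had the highest endoderm and cardiac sums in A and the largest pool of the 3, with 25 pieces against 9 and 13. It also had the most detected probes of the 3 (14647 against 13500 and 14272) and the highest signal over background (13.3 against 5.81 and 4.72). The sum of 5 blood genes was instead highest in A replicate 1, at 943 against 139 and 146 in replicates 2 and 3. In P the visceral endoderm sum was 10800 and 6070, and in PP it was 37700 and 18000. The part of these tissues, and of array signal, in the differences between A, P and PP was not tested.

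Other rostral neural genes were compared from a list of 30, of which 17 could be tested. Between A and P, 6 of the 17 were higher in A and 0 lower, with a median of 0.36 against 0.06 over all genes. The LIM homeodomain gene Lhx5 was higher by 2.91 (limma adjusted p = 1.65e-05) and Shisa2, which retains Wnt and Fgf receptors inside the cell, by 2.76 (5.62e-08). Dmbx1 was at least 3.51-fold higher (2.66e-10) and Fezf1 at least 1.89-fold (1.04e-05). These 4 were also called within batch 2. Dmbx1 and Fezf1, both among the 6, were detected on the 3 A arrays and no other. They were thus tested only through the group in which they are high, which favours their place in that count. Between A and PP, 7 were higher in A and 1 lower (median 1.14 against 0.05). The Wnt antagonist Sfrp1 differed by 4.75 (limma adjusted p = 1.77e-07) and Lhx5 was at least 12.8-fold higher (1.84e-08). Between P and PP, 3 were higher in P and 0 lower (median 0.72 against -0.02).

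Of 13 organiser, prechordal and anterior endoderm genes, 12 were tested, and 3 were higher and 1 lower in A than in P (median 0.31 against 0.06). The Nodal and Bmp antagonist Cer1 was higher in A by 1.83 (limma adjusted p = 7.41e-06). Shh, secreted by the axial mesoderm, was higher by 2.14 (0.0192), a call lost without A replicate 1 (2.09, 0.077), P replicate 1 (2.15, 0.127) or P replicate 2 (2.13, 0.0949) and with no batch term (1.79, 0.189). Hhex was higher by 1.22 (limma adjusted p = 0.0125), but not without P replicate 1 (1.24, 0.0888) or P replicate 2 (1.2, 0.0764). Lhx1 was lower in A at -1.43 (limma adjusted p = 0.000166), though not called under cyclic loess normalisation (-1.13, 0.0878). Within batch 2, limma called Shh and Cer1 but neither Hhex (1.15, 0.102) nor Lhx1 (-1.35, 0.109). Between A and PP, 4 were higher and 2 lower (median 0.69 against 0.05), with Cer1 at least 7.2-fold higher in A. Shh, not detected in PP, was higher in A by a fitted 4.56 (limma adjusted p = 3.47e-06), or 23.6-fold. Its bound from array means, 29.7-fold, exceeds the fitted value and is no minimum. Between P and PP, 1 of the 12 genes was higher in P and 0 lower (median 0.33 against -0.02).

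Posteriorising signals and streak genes ran the other way. All 18 listed genes were tested, and 0 were higher and 14 lower in A than in P, with a median of -3.13 against 0.06 over all genes. Wnt3a was at least 68.5-fold lower in A (limma adjusted p = 3.77e-15), Cdx1 at least 49.1-fold (9.84e-14) and Tbx6 at least 25.9-fold (1.01e-11). Cdx2 differed by -5.93 (2.69e-14). Against PP, 0 were higher and 16 lower in A (median -3.41 against 0.05). Between P and PP, 0 were higher and 2 lower in P (median -0.69 against -0.02).

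Close relatives of the 8 genes, from the same families, were listed as well. Of 24, 16 were tested, and 2 were higher and 1 lower in A than in P (median 0.34 against 0.06). Otx1 was higher by 1.61 (limma adjusted p = 0.00272), a call lost without P replicate 1 (1.45, 0.0639). Fzd8, detected on 2 of 3 A arrays, was higher by a fitted 1.45 (limma adjusted p = 0.0153). That call was lost without A replicate 1 (1.33, 0.0891), A replicate 2 (1.03, 0.0904), P replicate 1 (1.43) or P replicate 2 (1.48). Fzd10, another Frizzled receptor, was lower in A at -3.53 (2.94e-09), opposite to Fzd5. Against PP, 5 were higher and 1 lower in A (median 0.63 against 0.05), and 1 was higher in P than in PP and 0 lower (0.40 against -0.02).

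Marker lists of other tissues were compared between A and P in the same way, where 1.37% of all genes were higher in A and 1.51% lower. Myl7, 1 of 6 cardiac genes tested, was higher in A by 2.64 (limma adjusted p = 5.12e-05; detected on 1 of 2 P arrays), which was 1.95 without P replicate 1 and 3.33 without P replicate 2, and which was not called within batch 2 (2.23, 0.0863). Of 7 visceral endoderm genes, 1 was lower in A, Apob (-2.14, 0.00154), a call lost without P replicate 1 (-1.76, 0.0688). None of 4 definitive endoderm, 5 blood, 7 surface ectoderm, 4 allantois and extraembryonic mesoderm and 3 neuronal genes was called by limma. Medians were 0.03 for the cardiac, -1.44 for the visceral endoderm, 0.03 for the definitive endoderm, 0.28 for the blood, -0.19 for the surface ectoderm, -0.06 for the allantois and 0.22 for the neuronal list, against 0.06 over all genes. Against PP, 5 visceral endoderm, 3 allantois and 2 surface ectoderm genes were lower in A, and 1 cardiac and 1 neuronal gene higher.

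**Figure D3:**
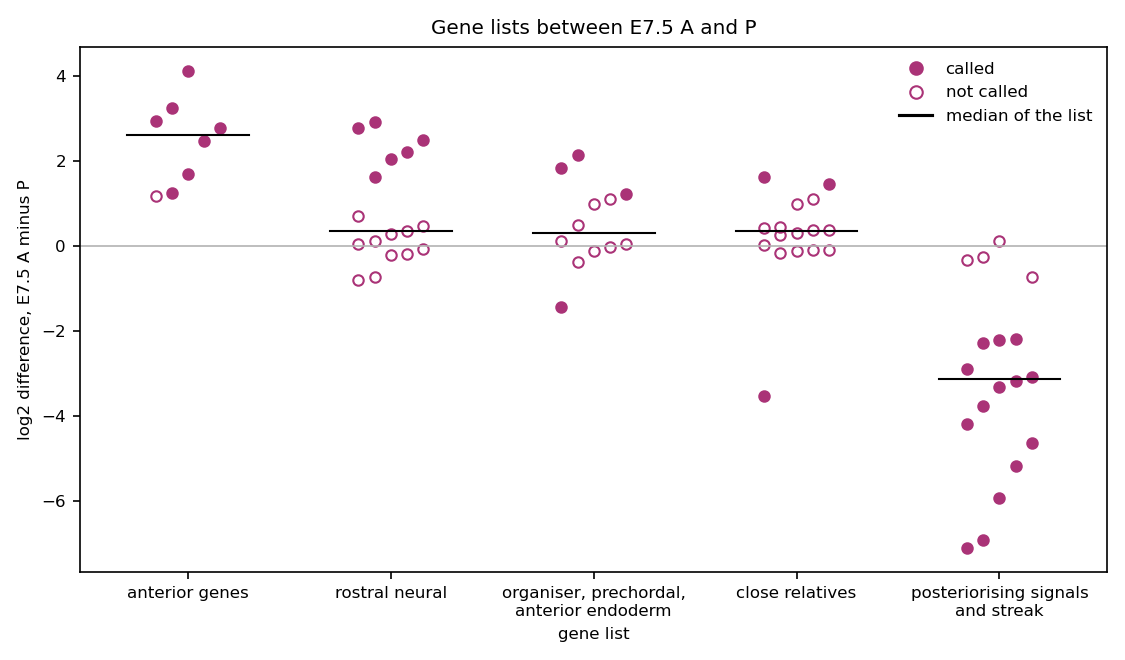
Log2 difference between A and P at E7.5 (y axis) for the 8 anterior genes and the genes of 4 lists (x axis). Points are genes, filled where called, and black bars are medians, 2.61 for the anterior genes and -3.13 for posteriorising signals and streak genes.

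The later comparisons ask how far these transcripts persisted in the caudal pieces. Relative to A, 6 of the 8 genes were lower in the mean of the 5 E8.5 regions and 0 higher, where 2.16% of genes were lower and 2.43% higher. The median of the 8 genes was -3.68 against -0.05 over all genes. Otx2 fell by 6.47 (SE 0.32, limma adjusted p = 7.16e-12), a fitted value that includes the 9 E8.5 arrays without detection. It remained detected at 6.26 on both RN arrays and at 5.73 on 1 of 3 NSB arrays, and 3 of the 12 E8.5 arrays detected it. Foxd4 fell by 4.84 (SE 0.36, limma adjusted p = 4.58e-09, 7 of 12 arrays), Fam107a fell by 3.93 (SE 0.31, 9.88e-09, detected on 2 of 12 arrays) and Fzd5 fell by 3.84 (SE 0.43, 2.81e-06). Gsc fell by 3.52 (SE 0.69, limma adjusted p = 0.00265, 4 of 12 arrays) and Pou3f1 fell by 2.96 (SE 0.50, 0.000535, 10 of 12 arrays). Hesx1 (-1.64, 0.131) and Six3 (-0.75, 0.373) were not called. Without A replicate 3 they were at -0.47 and -0.12. Both, undetected at E8.5, were called in 5 other treatments of batch, such as no batch term (Hesx1 -1.32, 0.0213 and Six3 -1.28, 0.000732), where the probes called lower over the whole array also rose from 438 to 1383. Hesx1 was called without CLE replicate 1 (-1.93, 0.0316), for a count of 7. Both genes were tested only through A replicate 3.

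Only NSB replicate 3 links batch 1, which holds RN, St1, St5 and 2 NSB arrays, to the E7.5 arrays, so the E8.5 against E7.5 values cannot be fitted without it. Within batch 2, E8.5 is CLE replicate 1 alone, an array with few detected probes that is assumed to vary like the other groups. There limma called 1402 of the 21712 probes higher than in A and 1911 lower, far more than in the fit to all arrays. It called 5 of the 8 genes lower, with Otx2 at -7.06 (adjusted p = 7.33e-05), Foxd4 at -6.95 (0.000344), Fam107a at -3.81 (0.00411), Gsc at -3.22 (0.00685) and Fzd5 at -3.03 (0.00246), and Pou3f1 at -1.45 was not called (0.0685). Within batch 3, where CLE and NSB face 1 A array, assumed to vary likewise, it called 20 probes higher and 8 lower, the latter including Otx2 (-6.42, 0.0272) and Fam107a (-3.94, 0.0368). Foxd4 (-4.27, 0.0921), Fzd5 (-3.95, 0.0893), Gsc (-3.61, 0.292) and Pou3f1 (-2.75, 0.122) had the same sign there. These fits within batches were chosen after seeing the data.

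Relative to P, 2 of the 8 genes were lower at E8.5 and 0 higher, where 0.675% of genes were lower and 0.701% higher (median of the 8 genes -0.80 against 0.03). Otx2, detected on 3 of the 12 E8.5 arrays, fell by a fitted 4 (SE 0.36, limma adjusted p = 5.99e-07). Foxd4 fell by 2.08 (SE 0.40, limma adjusted p = 0.00898), a call lost without P replicate 2 (-1.63, 0.0652) and under cyclic loess normalisation (-1.42, 0.381). Without P replicate 2 the count was therefore 1. It was 3 without P replicate 1, where Fam107a was at -1.65 (limma adjusted p = 0.0018) in place of -0.99 (0.17), and 3 without CLE replicate 1, where Pou3f1 was at -1.74 (0.0324) in place of -1.27 (0.3). Within batch 2, the lone CLE replicate 1, assumed to vary like the other groups, differed from P in 1457 probes higher and 1840 lower. There it gave Otx2 -4.41 (limma adjusted p = 0.000757) and Foxd4 -4.17 (0.00215), and Hesx1, undetected on all arrays compared, was 0.98 higher (0.0266).

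The other lists moved as follows between A and E8.5. Of the rostral neural genes, 1 was higher at E8.5 and 7 lower (median -1.01 against -0.05), among them Lhx5, at least 11-fold lower (limma adjusted p = 1.22e-07), and Dmbx1, at least 4.04-fold (1.01e-10). The 7 include Dmbx1, which only the 3 A arrays detected, so that it was tested only through the group in which it is high. Shisa2 fell by 3.71 (limma adjusted p = 1.15e-08). Of the organiser and prechordal genes, 1 was higher and 3 lower (median -0.60), including Cer1, which fell by 3.76 (1.95e-09; detected on 1 of 12 arrays), and Hhex, which fell by 2.28 (0.000127). Within batch 2 these 5 genes were called, and within batch 3 only Cer1 was, with Lhx5 at -4.34 (limma adjusted p = 0.139), Dmbx1 at -3.28 (0.0589), Shisa2 at -3.95 (0.0704) and Hhex at -2.67 (0.1). Of the streak genes, 14 were higher and 0 lower (median 3.49), and of the relatives 1 was higher and 4 lower (median -0.47). Against P, the counts higher and lower at E8.5 were 0 and 2 for rostral neural genes (median -0.58 against 0.03), 1 and 2 for organiser genes (-0.03), 2 and 0 for streak genes (0.30) and 1 and 1 for relatives (-0.22). Markers of other tissues moved too. Between A and E8.5, 1 blood gene was higher at E8.5 (list median 2.34), and 1 visceral endoderm (-1.13), 1 definitive endoderm (-0.97), 1 cardiac (-0.90) and 1 neuronal gene (-0.87) were lower. An allantois gene was higher (0.69). Against P, 1 blood (2.54) and 1 allantois gene (0.12) were higher, and 1 visceral endoderm (-2.76), 1 cardiac (-1.01) and 1 definitive endoderm gene (-0.80) lower. Their part in the E8.5 values was not tested.

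Within E8.5, RN was set against the mean of the other 4 regions. Of the 8 genes, 4 were higher in RN and 0 lower, where 2.1% of genes were higher and 0.431% lower (median of the 8 genes 0.70 against -0.01). Foxd4 had 11.57 and 11.58 in RN and 10.77, 10.9 and 10.8 in NSB. It had 6.63 and 6.16 in St1, and in CLE (5.52, 6.3 and 5.68) and St5 (4.81 and 4.68) it was not detected. RN and NSB were therefore both above P (9.24 and 10.15), and the order of Foxd4 was A, RN, NSB and P with no overlap between neighbours. The RN difference was 4.59 (SE 0.28, limma adjusted p = 4.15e-10; 5 of the 10 other arrays detected it), and 4.25 within batch 1 (2.21e-08). Batch 1 holds no CLE, so values within it set RN against NSB, St1 and St5 only, and that fit called 937 probes higher in RN and 586 lower, against 408 and 80 over all arrays.

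Pou3f1 had 9.16 and 8.65 in RN, 7.85, 7.45 and 7.49 in NSB, 9.77, 7.59 and 6.99 in CLE, and 7.35 and 6.91 in St1. St5 did not detect it, at 5.59 and 5.35. CLE replicate 1, a pool of 12 pieces, stood apart from the other CLE arrays and above both RN arrays. RN exceeded the other regions by 1.86 (SE 0.38, limma adjusted p = 0.00509), and, without CLE, by 2.16 within batch 1 (7.84e-06). Otx2 was higher in RN by 1.25 (SE 0.25, 0.0037; detected on 1 of the 10 other arrays), and by 1.08 within batch 1 (1.86e-05). Fam107a had 5.92 and 6.31 in RN and was detected in no other E8.5 region, which made it at least 1.14-fold higher in RN (fitted difference 1.06, SE 0.24, limma adjusted p = 0.0113), with 1.13 within batch 1 (2.69e-05).

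With 2 RN arrays, these calls were sensitive to either. Without RN replicate 1 the count was 2, since Otx2 (1.25, limma adjusted p = 0.0734) and Pou3f1 (1.6, 0.2) were lost, and without RN replicate 2 it was 2, since Otx2 (1.25, 0.0745) and Fam107a (0.87, 0.401) were lost. With an offset of 100 it was also 2, without Otx2 (0.48, 0.117) and without Fam107a (0.38, 0.0251), whose fold fell under 1.5. ComBat without covariates raised both, to 2.85 for Otx2 (4.35e-07) and 2.18 for Fam107a (7.75e-07), and Pou3f1 to 2.6 (6.24e-07). Of the organiser genes, 7 were higher in RN and 0 lower (median 1.19 against -0.01), led by Shh, 4.01 (limma adjusted p = 7.96e-06; 3.03 within batch 1), and the Nodal antagonist Lefty1, 2.99 (1.15e-07). Of the rostral neural genes 3 were higher and 0 lower (0.15), of the relatives 3 and 0 (0.18), and of the streak genes 1 and 7 (-0.97). Of 5 blood genes, 3 were higher in RN. Their summed intensity was 5780 and 3050 in RN, against 150 to 2650 on the other E8.5 arrays, with Hba-a1 the most abundant in RN. Of 4 definitive endoderm genes 1 was higher in RN (median 0.43), and none of 7 visceral endoderm genes was called, although all 7 had positive values (0.85). The part of these tissues in the RN values was not tested.

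Fzd5 and Gsc were distributed differently at E8.5. Fzd5 was detected on all 12 arrays, at 7.1 and 7.13 in RN, 7.44, 7.62 and 7.86 in NSB, 9.08, 8.3 and 8.05 in CLE, 7.56 and 8.2 in St1, and 7.06 and 7.31 in St5. RN was thus among the lowest, with St5. Gsc had 6.13 and 5.68 in RN and was not detected in NSB, CLE or St1, but was detected in St5 at 7.18 and 6.92, the highest region mean after A (7.05), close to E11.5 P-CNH (6.92), whose arrays overlap it. In St5 the summed intensity of 4 allantois and extraembryonic mesoderm genes was 10500 and 12200, against 884 to 2780 in the other E8.5 regions, with Etv2 and Tbx4 the most abundant. The part of that tissue in the Gsc level was not tested, and the level in St5 was singled out after its values were seen.

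In the tail bud, 4 of the 8 genes were lower than at E8.5 and 0 higher, where 6.28% of genes were lower and 7.33% higher. The median of the 8 genes was -0.68 against 0.01 over all genes. Foxd4 was detected on 7 of 12 E8.5 arrays and on 0 of 17 tail bud arrays, where it lay between 4.44 and 5.4. Its fitted difference was -3.05 (SE 0.23, limma adjusted p = 1.94e-09), with an approximate bound of 3.65-fold. Pou3f1 was detected on 10 of 12 and 0 of 17, with a fitted difference of -2.59 (SE 0.31, 2.65e-06) and an approximate bound of 2.71-fold. Undetected E8.5 arrays entered the means behind both bounds. Otx2 was detected on 3 of 12 and 0 of 17, with a fitted difference of -0.93 (SE 0.20, 0.0029) and no bound. Its call was lost with an offset of 100 (-0.34, 0.0675) and when background was left in (-0.57, 0.00836), where the fold was under 1.5.

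Fzd5 was the only one of the 4 still seen in the tail bud, on 13 of 17 arrays. Over E9.5 to E11.5 these were 7 of 7 CNH and 3 of 6 P-CNH arrays. P-CNH had 6.4 and 6.74 at E9.5, 5.6 and 5.4 (undetected) at E10.5, and 5.28 (undetected) and 6.27 at E11.5. CNH was at 6.56 and 6.83 at E9.5, 5.8 and 5.85 at E10.5, and 7.5, 6.83 and 6.89 at E11.5. At E12.5 it was at 7.82 and 7.37, and at E13.5 at 8.24 with the other array undetected (6.41). Fzd5 fell by 1.45 (SE 0.27, limma adjusted p = 0.00055) between E8.5 and the tail bud. With the weaker Fzd5 probe, undetected at both stages, the value was -0.03 (0.964).

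Batch 1 holds only E10.5 tail buds and no CLE. Within it, limma called 2148 probes higher in the tail bud and 1920 lower, the latter including all 4, Foxd4 (-3.82, adjusted p = 9.18e-11), Pou3f1 (-2.38, 5.45e-08), Fzd5 (-1.76, 2.44e-07) and Otx2 (-0.86, 2.11e-06). Within batch 2, E8.5 is CLE replicate 1 alone, assumed to vary like the other groups, and 3369 probes were called higher in the tail bud and 2373 lower. There Foxd4 (-0.80, 0.114) was not called, Pou3f1 (-4.4, 0.000635), Fzd5 (-1.82, 0.00558) and Otx2 (-0.74, 0.0346) were, and Hesx1, undetected there, was at -1 (0.00913). Within batch 3, with 208 probes higher and 178 lower, Foxd4 (-3.52, 0.0205) and Pou3f1 (-2.55, 0.0226) were called, and Fzd5 (-1.38, 0.113) and Otx2 (-0.49, 0.411) were not. Of 5 blood genes, 4 were higher in the tail bud than at E8.5 (median 3.5 against 0.01), with sums of 4040 to 43000 against 150 to 5780. Of the visceral endoderm genes 0 were higher and 3 lower (-0.89), and of the definitive endoderm genes 0 and 2 (-1.64). The counts were 2 and 1 for cardiac (-0.30), 1 and 0 for surface ectoderm (0.32) and 0 and 1 for allantois genes (-0.63). The part of these tissues was not tested.

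Gsc was not called between E8.5 and the tail bud (0.02, limma adjusted p = 0.99), and the batches differed, with -0.32 in batch 1 (0.0145), -0.90 in batch 2 (0.153) and 1.11 in batch 3 (0.416). It was undetected on the 4 E9.5 arrays and in E10.5 CNH, and detected in E10.5 P-CNH at 5.83 and 5.7. At E11.5 it was detected in P-CNH at 7.82 and 6.01, and in CNH at 6.44 and 6.19 on 2 of 3 arrays. At E12.5 and E13.5 it was detected on 1 of 2 arrays each, at 6.14 and 7.21. The replicates of a region therefore differed widely in the late tail bud. Hesx1, Six3 and Fam107a were detected on none of the 17 tail bud arrays.

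CNH and P-CNH, averaged over E9.5 to E11.5, were compared as the rostral and caudal tail bud. None of the 8 genes was called by limma, and 0 had an unadjusted p under 0.05, where 0.553% of genes were higher in CNH and 0.0964% lower. Values ran from -0.59 for Gsc to 0.38 for Fzd5 (median 0.04 against 0). Within batch 1, E10.5 CNH faces E10.5 P-CNH. That fit called 391 probes higher in CNH and 169 lower, against 108 and 22 over all arrays. Gsc was among the lower (-0.75, limma adjusted p = 0.0226), although its E10.5 difference was not called in the fit to all arrays. It was at -0.30 in batch 2 and -0.72 in batch 3, both with an adjusted p of 1 and with a lone array in 1 of the groups, assumed to vary like the others. Hesx1 was called with BeadChip as a fixed term (1.01), although no tail bud array detected it.

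Other genes did separate the pieces. Shh was higher in CNH by 5.13 (limma adjusted p = 2.51e-09; 7 of 7 arrays against 1 of 6), and the forkhead gene Foxa2 was at least 2.75-fold higher (3.32e-06). Within batch 1 both were called (Shh 5.91, Foxa2 3.37), within batch 2 Shh alone, with Foxa2 at 2.31 (0.0529), and within batch 3 neither (Shh 4.29 and Foxa2 2.22, adjusted p of 1 each). Otx1, the relative of Otx2, was higher by 1.18 (limma adjusted p = 0.00185), with 1.7 in batch 1 (0.000158), 1.24 in batch 2 (0.26) and 0.43 in batch 3 (1). It was detected on all 13 of these arrays, at a mean of 8.34 ± 0.04 (SD, n = 2) in E9.5 CNH. In the lists, 1 rostral neural gene (median 0.13), 2 organiser genes (0.19), 1 streak gene (-0.04) and 3 relatives (0.22) were higher in CNH and 0 lower. Of 4 definitive endoderm genes 3 were higher (1.12) and 0 lower, and of 7 surface ectoderm genes 0 were higher and 1 lower (-0.63), whose part in the Shh and Foxa2 differences was not tested. Between E8.5 and the tail bud the counts higher and lower were 2 and 3 (0.11), 0 and 1 (0.09), 6 and 4 (0.13) and 2 and 1 (0.14), in the same order, against a median of 0.01. Shisa2, among the genes lower at E8.5 than in A, was higher in the tail bud than at E8.5 by 1.59 (limma adjusted p = 1.67e-06), though not called within batch 3 (1.58, 0.0627).

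**Figure D4:**
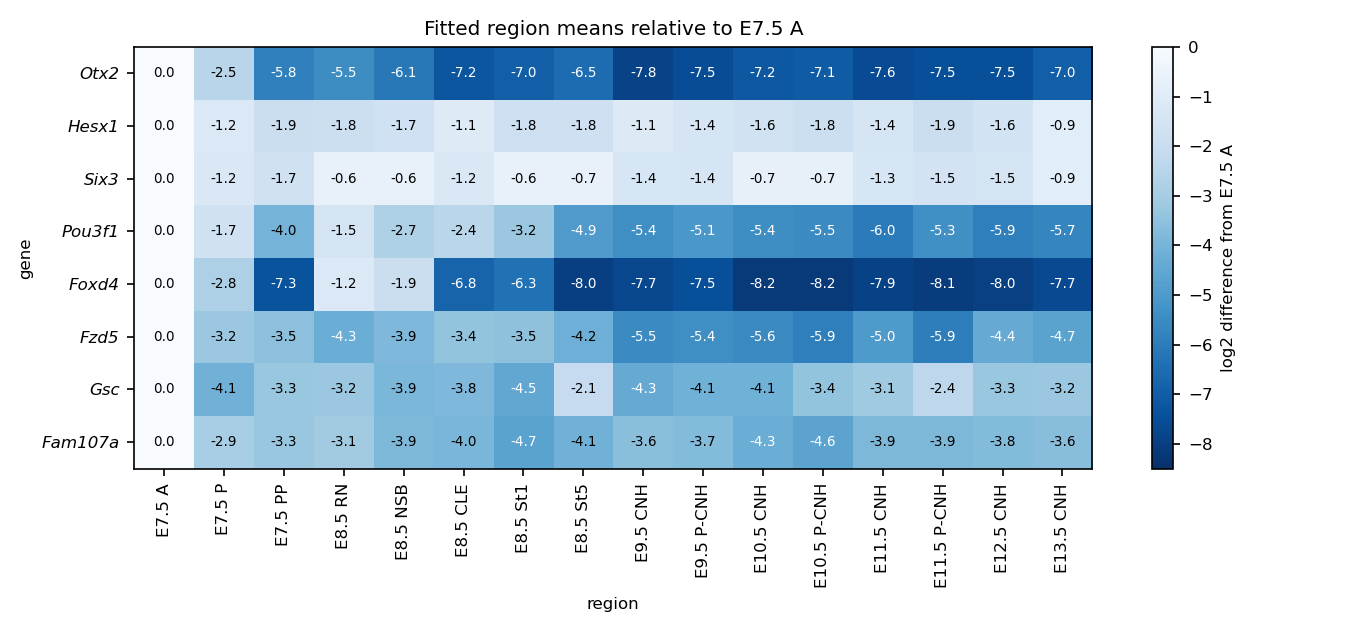
Fitted mean of each region (x axis) minus that of E7.5 A, on the log2 scale, for each gene (y axis), with the value in each cell and darker blue for lower values. All 15 other regions lie below A for each of the 8 genes, and cells of regions without detection, such as Foxd4 in the tail bud, show fitted values at background and not exact differences.

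Over the 16 fitted region means, the 8 genes resembled each other to different degrees. Foxd4 and Pou3f1 had a Pearson r of 0.904, Otx2 and Fam107a 0.869, and Otx2 and Fzd5 0.844, whereas Gsc and Pou3f1 had 0.314. These 16 points share arrays and the batch term, and the values are descriptions without a test. The probes most like each gene, out of 4348 with a range of at least 2, were Mast1 (0.958), Slc6a13 (0.955) and Pcsk2 (0.954) for Otx2. For Foxd4 they were Fgf5 (0.93), 1700027A23Rik (0.915) and Rsph1 (0.911). Those of Pou3f1 were Slc7a3 (0.975), Eras (0.96) and Calb2 (0.953). Fam107a was closest to Insm1 (0.963), 4933436C20Rik (0.953) and Srd5a2 (0.94). Fzd5 had 4930426D05Rik (0.904), Syt1 (0.891) and Kif5a (0.886). Gsc had lower values, with Srd5a2 at 0.758, Marveld3 at 0.746 and Dmbx1 at 0.745. The neighbours of Otx2, Fam107a, Fzd5 and Gsc were detected on 3 to 9 of the 36 arrays, so these r rest on few regions and on values below detection. Hesx1 and Six3 had ranges of 1.92 and 1.69 and were not matched.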

How the data were processed

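RNA of pooled microdissected pieces was run on 36 MouseWG-6 v2.0 arrays of Illumina, in 3 batches of 12 and on 6 BeadChips, as the labels give them. The deposited table holds the mean bead intensity of each probe, not normalised and with background included, and a deposited detection p-value against negative-control beads. The authors' later steps used lumi (version not given in the sources used here) and are not in that table. Here neqc of limma 3.58.1 (R 4.3.3, package data.table at version 1.17.8) corrected background by normexp with an offset of 16, quantile-normalised and took log2. The fit kept each probe that any array detected at a p-value under 0.01, which left 21712 of 45281, or 15556 gene symbols. A linear model with region and batch (18 residual degrees of freedom) was fitted over all 36 arrays and tested with the moderated test of limma, two-sided, adjusted by Benjamini-Hochberg over all kept probes within a comparison. A gene was represented by its probe with the highest mean. Nothing says that the pools of a region came from separate litters, so p-values measure the spread between these pools. From each list up to 4 called genes with the largest difference were eligible for naming, and the 3 most similar patterns by Pearson r. The members and lists were chosen with earlier results of these data known. Scripts were tested on simulated data. 7970 probes were detected on every array, and 630 pairs of arrays included no identical pair. Promoters came from RefSeq. Figures used Python 3.11.15, matplotlib 3.10.9 and NumPy 2.4.6.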

Additional observations from a re-analysis of the deposited data

How the results depend on the processing

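Background correction, offset, normalisation, batch handling, detection filter, probe choice, single arrays left out and fits within batches were varied. For the 34 called differences of the 8 genes, 814 alternative values gave 765 with the same sign and call, 49 with the same sign but no call and 0 with the opposite sign. For the 30 not called, 794 values gave 709 alike, 23 called with the same sign and 62 of opposite sign, spread over 16 differences. Of 3777 values for 144 differences of list genes, 375 lost the call and 7 changed sign. The number of genes called between the rostral node and the other E8.5 regions was 2 with an offset of 100, and 2 to 4 with 1 array left out. Between E8.5 and P it was 1 under cyclic loess normalisation, 4 with no batch term and 4 with ComBat with the regions as covariates, and 1 to 3 with 1 array left out. Of the 21712 probes, those called lower at E8.5 than in P went from 160 to 20, 1095 and 3214 in these 3 settings, in the same order. The counts of the 8 genes thus moved with the calls over the whole array. Between CNH and P-CNH the number of the 8 genes called was 1 with BeadChip as a fixed term and 1 within batch 1. Between A and PP it was 0 within batch 3. Within batch 3, chosen after seeing the data, it was 2 between E8.5 and A and 2 between the tail bud and E8.5. Opposite signs between P and PP, none called, were Hesx1 -0.09 with no batch term, Fam107a -0.05 with ComBat without covariates and Fam107a -0.34 without P replicate 2 (0.99 without P replicate 1). Opposite signs within batch 2 were Hesx1 0.51 and Lefty1 -0.23 between E8.5 and A, Hesx1 0.98 (called), Pou3f1 0.28, Fzd5 0.08 and Tbx4 -0.09 between E8.5 and P, Foxd4 -0.41, Six3 -0.24 and Hesx1 -0.09 between CNH and P-CNH, and Hesx1 -1 (called), Gsc -0.90, Sox17 0.18, Apoa1 0.66, Tbx4 0.06 and Myl7 0.10 between the tail bud and E8.5, and within batch 3 Sox17 -0.27 between CNH and P-CNH. Those within batch 1 were Gsc -0.32 and Fam107a -0.51 between the tail bud and E8.5 and Pou3f1 0.08 between CNH and P-CNH. The cause of these changes was not tested. Leaving out NSB replicate 3 made the comparisons of E8.5 with E7.5, of the tail bud with E8.5 and of RN with the other regions impossible to fit. Without the 2 arrays with the fewest detected probes together, an alternative chosen after seeing the data, the count was 7 between E8.5 and A (Hesx1 added) and 3 between E8.5 and P (Pou3f1 added), and the other 6 counts did not change. Some differences were smaller in other settings, such as Gsc between A and P (2.47 with an offset of 100), Foxd4 between A and PP (5.64 with an offset of 100) and Otx2 between E8.5 and A (-4.47 with ComBat without covariates), all still called. With BeadChip as a fixed term Hesx1 was called between P and PP (2.86), where neither region detected it. Genes below detection have only bounds, which the weakest detected signal of each array (log2 5.55 to 7.19) limits.

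Over all probes, counts higher and lower between A and PP were 653 and 682, and reached 1184 with ComBat with the regions as covariates and 1265 under cyclic loess. That ComBat setting moved A and P from 262 and 331 to 430 and 505, P and PP from 87 and 85 to 438 and 446 (33 and 13 with BeadChip as a fixed term), E8.5 and A from 468 and 438 to 2422 and 3197, and E8.5 and P from 139 and 160 to 2524 and 3214 (44 and 20 under cyclic loess). Between the tail bud and E8.5, 1414 and 1221 became at most 2653 (ComBat with the regions as covariates) and 2706 (no batch term) and at least 962 and 808 with an offset of 100. For RN, 408 and 80 became at most 763 and 360 with ComBat without covariates, and for CNH against P-CNH 108 and 22 became 178 (BeadChip as a fixed term) and 51 (ComBat with the regions as covariates).

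The labels do not say that same-numbered pools came from the same embryos. Same-numbered A and P arrays in batch 2 have equal numbers of pieces (9 and 13), and same-numbered arrays of batch 1 share a BeadChip. In batch 1 every E8.5 pool held 45 pieces and every E10.5 pool 17, and the fits within that batch had no replicate block. Deviations of same-numbered A and P arrays correlated at -0.212 over 2 pairs, and those of other pairs of regions at 0.229 to 0.391. A replicate block beside region and batch turned Gsc between P and PP to 0.05, not called, and took the call from Hesx1 between A and PP (1.65, limma adjusted p = 0.117). A replicate block within batch 2 called the same 5 genes between A and P, and 71 and 177 probes higher and lower in place of 132 and 248. BeadChip as a random block had a consensus correlation of 0.483.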
